A study of Caenorhabditis elegans with 7 samples.

Results

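The glutathione S-transferase (GST) family of *C. elegans* was followed in N2 worms, the wild-type strain, given 25 μM tomatidine, a steroidal alkaloid of unripe tomatoes, or 1% DMSO as the vehicle from the last larval stage. Whole worms were collected on adult day 7, and Cy3-labeled cRNA was hybridized to 7 single-color Agilent arrays, 3 of tomatidine-treated and 4 of vehicle-treated worms. The methods describe 4 independent experiments and state that 1 hybridization combined the preparations in equal amounts, without naming its array, and the p values below make no allowance for that. The sample labels call the control worms untreated in one field and vehicle-treated in another, and the name vehicle is used here. Family members were chosen by name, as genes with a *gst*, *gsto* or *gstk* number. Of 49 such genes in the annotation, 48 had a matched probe on the array, and 43 were kept among the 14224 genes tested because a probe for them read well above background on 3 or more arrays. The kept genes were 38 of 44 *gst* genes, all 3 *gsto* genes and both *gstk* genes.

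GSTs join the tripeptide glutathione to reactive, electron-poor molecules, such as products of lipid peroxidation, drugs and plant toxins, and the conjugates are then exported from the cell. Cytosolic members fall into classes by sequence. Among them are omega members, such as the *gsto* genes, which act mainly as thiol transferases, and zeta members, which work in tyrosine breakdown. Kappa members (*gstk*) form a separate family, found in mitochondria and peroxisomes. Worms carry an expanded set, much of it in tandem arrays, and several members are known targets of SKN-1, the worm counterpart of the mammalian oxidative stress factor Nrf2. The gene *gst-4* (K08F4.7), whose promoter drives a common SKN-1 reporter, had no matched probe and was not analysed here.

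Levels are given as a scaled log2 signal, the log2 of the processed probe signal after each array was set to the same mean and spread. A difference of 1 on this scale is 2-fold, and levels of different genes cannot be set against each other because each probe binds with its own strength. Signals were well above background for 57.1%, 67.0% and 68.5% of probes on tomatidine replicates 1, 2 and 3, and for 69.7%, 53.0%, 60.5% and 66.1% on vehicle replicates 1 to 4. Vehicle replicate 2 was processed without one detrending step and had 28.5% of its spots at its lowest value, 332 of the 14224 genes and 1 GST gene, *gst-32*, among them. Tags in the sample descriptions, whose meaning is not stated, are shared by tomatidine 1 and vehicle 2 (300), tomatidine 2 and vehicle 3 (450), and tomatidine 3 and vehicle 4 (fem), while vehicle 1 stands alone. Tomatidine 1 and vehicle 1 to 3 were on slide 1, and tomatidine 2, tomatidine 3 and vehicle 4 on slide 2.

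No GST gene passed the test between tomatidine-treated and vehicle-treated worms. In limma's moderated test with Benjamini-Hochberg adjustment over all genes, 0 of 43 members were higher and 0 were lower at an adjusted p under 0.05, against 11 higher (0.0773%) and 0 lower (0%) among all 14224 genes. Without adjustment, 0 members were under 0.05 in either direction, against 107 genes higher (0.752%) and 67 lower (0.471%), and the lowest unadjusted p of a member was 0.201, for *gst-44*, with an adjusted p of 1. The range of the tomatidine arrays overlapped that of the vehicle arrays for all 43 members, whereas 2.08% of all genes showed no overlap, 0.816% with tomatidine higher and 1.27% with tomatidine lower. By the z-ratio of the methods, which divides the difference between the mean z-scores of the groups by the SD of all such differences, 1 member (*gst-19*) reached 1.5 and 1 member (*gst-2*) reached -1.5, against 5.29% and 3.68% of all genes.

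The differences were small and leaned upward. Log2 fold changes of the 43 members had a median of 0.09 with quartiles of 0.02 and 0.25, against a median of -0.03 with quartiles of -0.16 and 0.12 for all genes. Of the members, 34 (79.1%) lay above 0 and 9 below, against 45.3% of all genes above 0. That lean was not held by all other fits. With the description tag as a block 23 members were above 0 and 20 below. With the slide as a block 18 were above and 25 below. Left out singly, vehicle 1, vehicle 3 and tomatidine 3 left 23, 24 and 22 members above 0. The fit without vehicle 1 repeats the estimates of the tag block, in which vehicle 1 stands alone, and is not a separate check. Each of the other arrays left 31 to 35, and other scalings of the signal gave 31 to 33. The precision differed between members, with standard errors of 0.20 to 0.60 and a median of 0.32, so that the 95% interval lay within 2-fold in both directions for 34 members (79.1%, against 77.2% of all genes). The interval reached 2-fold higher for 8 members and 2-fold lower for 1, *gst-2*, and a difference of that size in these 9 genes lies inside the error of 7 arrays.

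**Figure D1:**
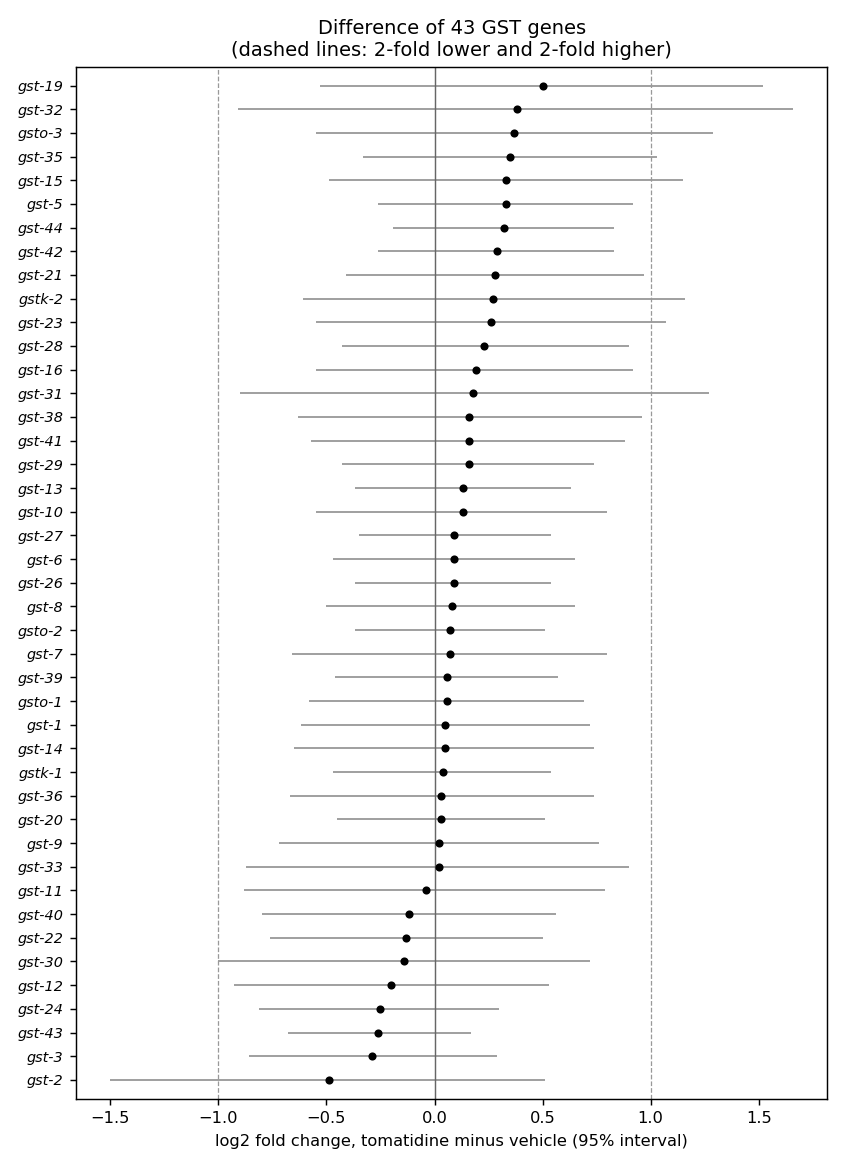
Log2 fold change of each of the 43 GST genes, tomatidine minus vehicle, ordered by size (x axis, log2 units), with points for the estimate and bars for the 95% interval of limma's fit on 3 tomatidine and 4 vehicle arrays. Every bar crosses 0, and the estimates run from -0.49 for *gst-2* to 0.50 for *gst-19*.

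The genes *gst-1*, *gst-10* and *gst-7* were close between the groups. The pi-class gene *gst-1* (R107.7) had signals of 16.50, 15.78 and 15.88 in tomatidine-treated worms, against 15.51, 16.75, 15.98 and 15.79 in vehicle-treated worms. Its log2 fold change was 0.05 ± 0.31 (SE), with a 95% interval of -0.62 to 0.72. The highest and the lowest arrays were both vehicle arrays. For *gst-10* (Y45G12C.2), which conjugates the lipid peroxidation product 4-hydroxynonenal, the tomatidine arrays gave 12.08, 11.70 and 12.55 and the vehicle arrays 11.18, 12.65, 11.69 and 12.42. Its difference was 0.13 ± 0.31 (interval -0.55 to 0.80), and again the vehicle arrays held both ends of the range, which spanned 2.77-fold. All 3 *gst-10* probes gave differences above 0, at 0.13, 0.39 and 0.13. The bright probe of *gst-7* (F11G11.2) read 15.59, 14.38 and 14.59 with tomatidine and 14.26, 15.64, 14.59 and 14.64 with vehicle, with a difference of 0.07 ± 0.34. Tomatidine 1 and vehicle 2, which share a tag, stood about 1 unit above the other 5 arrays for this gene.

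Of the zeta-class genes, *gst-42* (D1053.1) encodes maleylacetoacetate isomerase of the tyrosine breakdown pathway. It had signals of 9.90, 9.82 and 10.23 in tomatidine-treated worms and of 9.57, 9.41, 9.44 and 10.37 in vehicle-treated worms, with means of 9.99 ± 0.22 (SD, n = 3) and 9.70 ± 0.45 (SD, n = 4). Each tomatidine array lay above 3 of the vehicle arrays and below vehicle 4. The log2 fold change was 0.29 ± 0.25 (SE; interval -0.26 to 0.83, adjusted p = 1 in limma), and without vehicle 4 it was 0.51 (unadjusted p = 0.036, adjusted p = 1). The second zeta-like gene, *gst-43* (Y71F9AL.5), gave 11.09, 11.53 and 11.41 with tomatidine and 11.44, 11.38, 11.72 and 11.86 with vehicle. It was lower in the tomatidine array of every tag pair, by -0.30, -0.18 and -0.45, with an overall difference of -0.26 ± 0.20 (interval -0.68 to 0.17). The groups overlapped, as tomatidine 2 lay above vehicle 1 and vehicle 2.

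All 3 *gsto* genes had differences above 0, and each interval crossed 0. The *gsto* gene with the largest difference was *gsto-3* (K10F12.4). Its signals were 6.90, 7.23 and 8.11 in tomatidine-treated worms, against 7.87, 5.97, 6.95 and 7.37 in vehicle-treated worms. The difference was 0.37 ± 0.43 (interval -0.55 to 1.29), and a second *gsto-3* probe also gave 0.37. Within the tag pairs it was 0.92, 0.29 and 0.74, and with the tag as a block the estimate was 0.65 ± 0.25 (unadjusted p = 0.0184, adjusted p = 0.988), a fit in which 2.56% of all genes were higher at an unadjusted p under 0.05. Vehicle 1, which the block leaves out of the comparison, was the second highest of the 7 arrays for this gene. For *gsto-1* (C29E4.7) the arrays read 7.32, 7.95 and 8.10 with tomatidine and 7.63, 7.49, 7.63 and 8.20 with vehicle, a difference of 0.06 ± 0.30. For *gsto-2* (C02D5.3) they read 13.48, 13.04 and 13.34 with tomatidine and 12.83, 13.45, 13.32 and 13.27 with vehicle, a difference of 0.07 ± 0.21. The 6 *gsto-2* probes ranged from -0.48 ± 0.56 to 0.61 ± 0.52, and the probes at both ends were above background on 4 and 3 arrays. Those above background on all 7 arrays gave 0.07, 0.37 and 0.05. They carry the transcript name C02D5.3b, and the other *gsto-2* probes carry C02D5.3a or C02D5.3c.

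The kappa genes were likewise close. The tomatidine arrays gave 12.68, 12.49 and 12.70 for *gstk-1* (ZK1320.1) and the vehicle arrays 12.21, 13.16, 12.20 and 12.77, a difference of 0.04 ± 0.24. The tomatidine arrays (SD 0.12) all fell inside the range of the vehicle arrays (SD 0.47). For *gstk-2* (D2024.7) the values were 8.02, 8.95 and 9.03 with tomatidine and 8.40, 7.13, 9.03 and 9.02 with vehicle, a difference of 0.27 ± 0.41. It was -0.15 without vehicle 2, the lowest array for this gene.

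**Figure D2:**
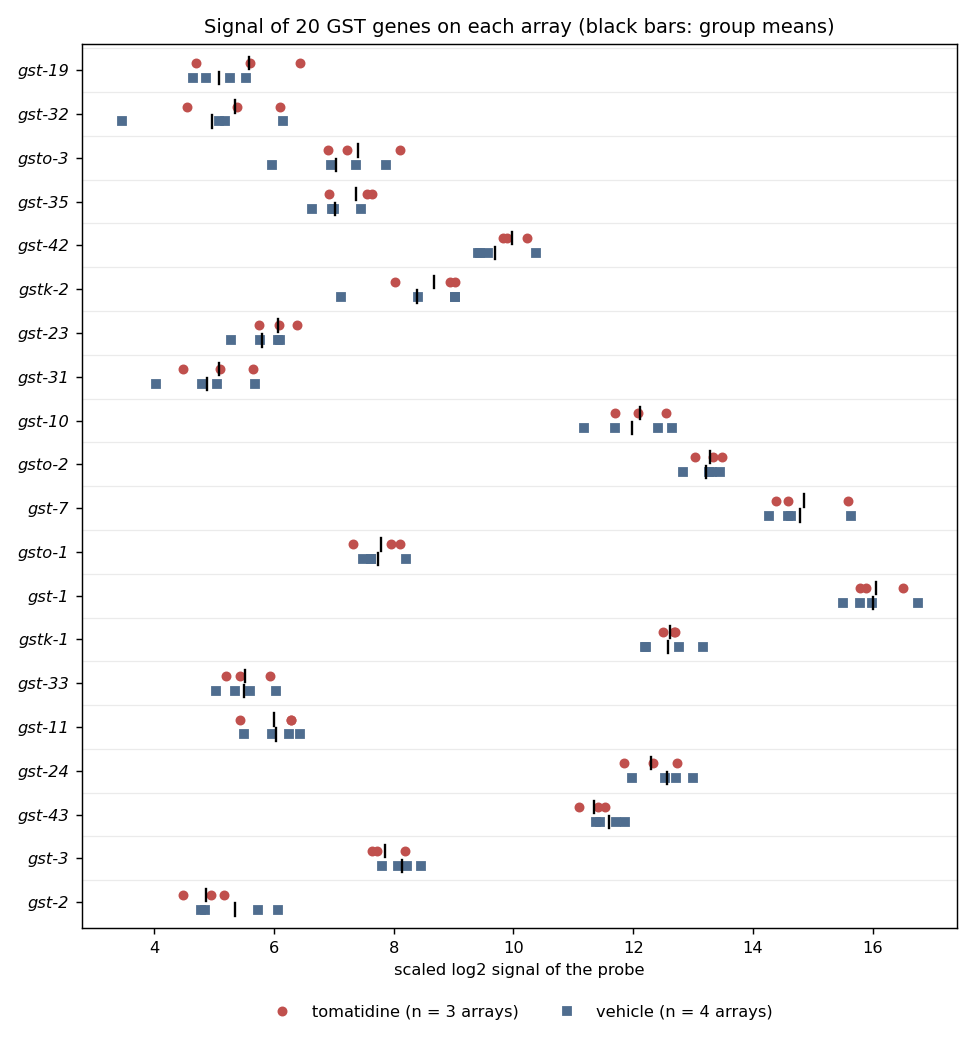
Scaled log2 signal (x axis, log2 units) of 20 GST genes on each array, ordered by log2 fold change, with circles for the 3 tomatidine arrays above squares for the 4 vehicle arrays and black bars for group means. In each gene the circles and squares overlap, and for *gst-42* the single high square is vehicle replicate 4 at 10.37.

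The members at the very ends of the range, *gst-19*, *gst-32* and *gst-2*, were dim. The gene with the highest fold change, *gst-19* (F37B1.8), read 4.70, 5.61 and 6.43 in tomatidine-treated worms and 5.27, 4.86, 4.65 and 5.54 in vehicle-treated worms, and its probe was above background on 2 arrays of each group. Its difference was 0.50 ± 0.48 (interval -0.53 to 1.52, adjusted p = 1 in limma). It rested on tomatidine 3, the highest of the 7 arrays, and was 0.07 without it. Without tomatidine 2, the next highest, it was 0.48, and tomatidine 1 stood near the bottom. For *gst-32* (Y53F4B.37) the arrays gave 4.55, 5.39 and 6.11 with tomatidine and 5.09, 3.46, 5.19 and 6.15 with vehicle. The 3.46 is the lowest value recorded on vehicle 2, shared by many spots, and the difference of 0.38 ± 0.60 was -0.13 without that array. The lowest fold change was that of *gst-2* (K08F4.6), with 4.49, 5.17 and 4.95 with tomatidine and 6.07, 4.78, 4.85 and 5.74 with vehicle. Vehicle 1 and vehicle 4 stood above the other 5 arrays, and the difference was -0.49 ± 0.47, with an interval of 0.355-fold to 1.42-fold (adjusted p = 1 in limma).

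The next genes from the ends were above background on all 7 arrays. Signals of *gst-35* (Y1H11.2) were 6.92, 7.55 and 7.64 in tomatidine-treated worms and 7.01, 6.64, 6.97 and 7.46 in vehicle-treated worms, a difference of 0.35 ± 0.32. It was above 0 in all tag pairs (0.29, 0.58 and 0.18). On the lower side, *gst-24* (F37B1.1) read 11.84, 12.73 and 12.33 with tomatidine and 11.98, 12.53, 12.72 and 13.00 with vehicle. Its difference was -0.25 ± 0.26, and it was -0.45 (unadjusted p = 0.0351, adjusted p = 0.988) with the tag as a block and -0.52 (unadjusted p = 0.0436, adjusted p = 0.999) with the slide as a block, in fits where 1.5% and 1.3% of all genes were lower at an unadjusted p under 0.05. Its tag pairs were at -0.68, 0.01 and -0.66. For *gst-3* (K08F4.11) the tomatidine arrays gave 7.64, 7.73 and 8.19 and the vehicle arrays 8.45, 7.81, 8.08 and 8.22, a difference of -0.29 ± 0.27.

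The filter on dim probes kept 8 members that were above background on some arrays and not on others, and 35 that were above it on all 7. Just inside the filter stood 7 genes with 4 such arrays, 2 in each group, *gst-2*, *gst-11*, *gst-19*, *gst-23*, *gst-31*, *gst-32* and *gst-33*, and *gst-30* had 6 such arrays. Of those not yet described, *gst-11* (R11G1.3) had signals of 5.43, 6.28 and 6.28 with tomatidine and 6.25, 5.97, 5.51 and 6.43 with vehicle, and *gst-23* (T28A11.11) had 5.76, 6.38 and 6.08 with tomatidine and 6.07, 5.29, 5.77 and 6.11 with vehicle. Their differences were -0.04 ± 0.39 and 0.26 ± 0.38, and the 3 kept probes of each gave the same sign. The arrays read 4.48, 5.10 and 5.66 with tomatidine and 5.06, 4.80, 4.03 and 5.68 with vehicle for *gst-31* (Y53F4B.35), a difference of 0.18 ± 0.51. For *gst-33* (C02A12.1) they read 5.43, 5.20 and 5.94 with tomatidine and 5.35, 5.61, 5.03 and 6.03 with vehicle, a difference of 0.02 ± 0.41. Left out by the filter, *gst-17*, *gst-18*, *gst-25*, *gst-34* and *gst-37* had probes above background on 0 arrays.

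The remaining 23 kept genes had log2 fold changes between -0.20 (*gst-12*) and 0.33 (*gst-5* and *gst-15*). The steadiest of the family were *gst-40*, with a pooled SD within groups of 0.11, *gst-26* at 0.15 and *gst-44* at 0.16. For *gst-44* (F13A7.10) the arrays gave 8.65, 8.34 and 8.60 with tomatidine and 8.21, 8.18, 8.03 and 8.42 with vehicle, and tomatidine 2 lay below vehicle 4. Its difference of 0.32 had a standard error of 0.24 in limma, which draws the spread of each gene toward that of all genes, and it gave an unadjusted p of 0.0498 (adjusted p = 1) in the methods' t-test, which uses the spread of the gene alone and is an approximation at this number of arrays; an exact permutation test of 3 against 4 arrays cannot go below 0.0571.

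The median GST gene varied more between arrays than the median of all genes. Over the 7 arrays the median member spanned 1.09 log2 units, against 0.91 for all genes, and the median pooled SD within groups was 0.42, against 0.34 for all genes. The widest were *gst-32* at 2.69 units, counted down to the lowest value of vehicle 2, and *gsto-3* at 2.13 units, a 4.39-fold range from vehicle 2 to tomatidine 3. The arrays that stood high were those with the tag fem. Of the 43 members, 35 (81.4%) were above their own 7-array mean on tomatidine 3 and 38 (88.4%) on vehicle 4, against 60.7% and 65.1% of all genes. The lowest was vehicle 3, with 8 members (18.6%) above their mean against 43.9% of all genes, and 12 were above it on vehicle 1. Tomatidine 1, tomatidine 2 and vehicle 2 had 18, 19 and 22 members above their mean.

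**Figure D3:**
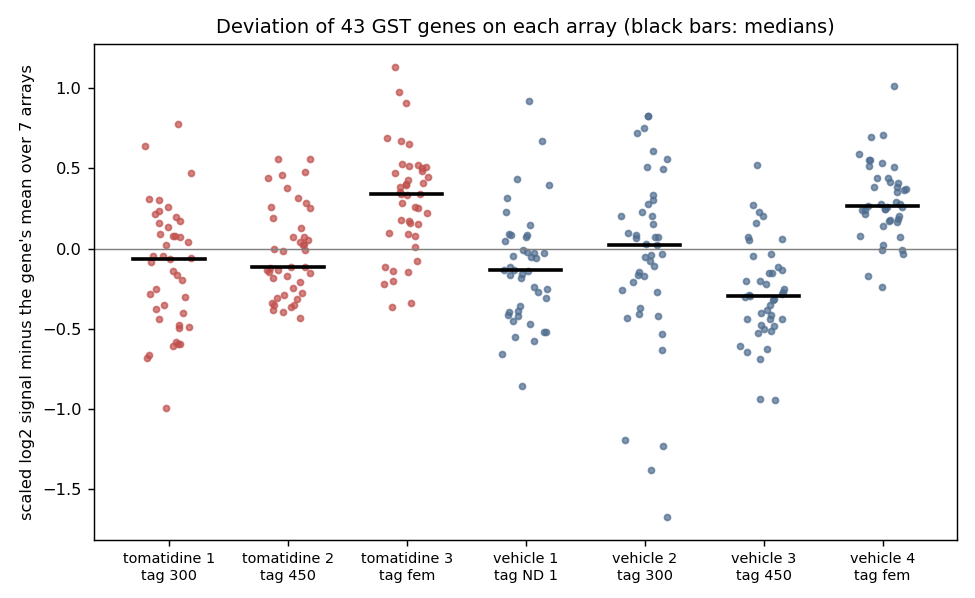
Scaled log2 signal of each of the 43 GST genes minus its own mean over the 7 arrays (y axis, log2 units), by array (x axis), with a point per gene and black bars for the medians. Medians are highest on the 2 arrays with the tag fem, at 0.34 for tomatidine replicate 3 and 0.27 for vehicle replicate 4, and lowest on vehicle replicate 3, at -0.30.

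Within each treatment the same arrays led. Tomatidine 3 was the highest tomatidine array for 29 members (67.4%, against 44.6% of all genes), and vehicle 4 was the highest vehicle array for 24 (55.8%, against 31.9%) and the lowest for 0. With the other 3 scalings of the signal, tomatidine 3 was above the mean for 33 members each and vehicle 4 for 34 to 36. After normexp and quantile normalization the median deviation was 0.11 on both of these arrays. Vehicle 2 then stood beside them, with a median of 0.10 and 30 members above their mean (69.8%, against 53% of all genes). The array with the fewest members above their mean was not the same under each scaling: vehicle 1 had 6 and vehicle 3 had 10 with the 75th percentile shift, 9 and 13 after normexp and quantile normalization, and 14 and 10 with the raw median signal. Some tissue markers also deviated on tomatidine 3 and vehicle 4, not all of them on both. All 7 germline and oocyte markers were measured, and their median deviation was -0.42 on both tomatidine 3 and vehicle 4, against 0.35 on tomatidine 1 and 0.40 and 0.37 on vehicle 2 and vehicle 3. The 7 intestinal markers, from the tissue in which many GST genes are expressed, had medians of 0.02 on tomatidine 3 and -0.05 on vehicle 4. On the other arrays their medians were 0.45 on tomatidine 1, 0.03 on tomatidine 2, -0.22 on vehicle 1, 0.41 on vehicle 2 and -0.21 on vehicle 3. The 3 of 4 hypodermal markers kept (all but *dpy-7*) had 0.28 on tomatidine 3 and 0.29 on vehicle 4, and also 0.26 on tomatidine 2. The 4 body wall muscle markers had -0.41 on tomatidine 3 and -0.09 on vehicle 4, and the 3 pharynx markers had -0.48 and -0.08. The 4 neuron markers had -0.11 on tomatidine 3 and -0.10 on vehicle 4, and the 3 of 4 sperm markers kept had 0.05 and 0.23. The summed signal of the germline markers ranged from 19.14 to 19.89 log2 units over the tomatidine arrays and from 19 to 19.88 over the vehicle arrays. That of the intestinal markers ranged from 18.65 to 19.30 and from 18.22 to 19.32, and that of the hypodermal markers from 11.91 to 12.26 and from 11.65 to 12.29. A sum follows its brightest probes and does not measure a whole tissue. The hypodermal marker *col-19* alone read 11.79 to 12.09 on the tomatidine arrays. In whole worms, fewer cells of a type and less RNA per cell cannot be told apart, and the part of tissue makeup in the GST values was not tested.

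Set against the array with the same tag, the median of the family differed in sign between pairs, in part with that of all genes. Tomatidine minus vehicle had a median of -0.14 over the 43 members for the tag 300, with 14 above 0 and 29 below, and all genes had a median of -0.09, with 6077 above and 8147 below. For the tag 450 the median was 0.29, with 33 above and 10 below, against 0.03 for all genes, and this pair lies on different slides. For the tag fem the median was 0.02, with 24 above and 19 below, against -0.00 for all genes. Compared within slides, tomatidine 1 against the mean of 3 vehicle arrays gave a median of 0.05, against -0.06 for all genes. The mean of tomatidine 2 and tomatidine 3 against vehicle 4 gave -0.16, with 10 members above 0 and 33 below, against a median of -0.08 for all genes, with 5362 above and 8862 below.

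**Figure D4:**
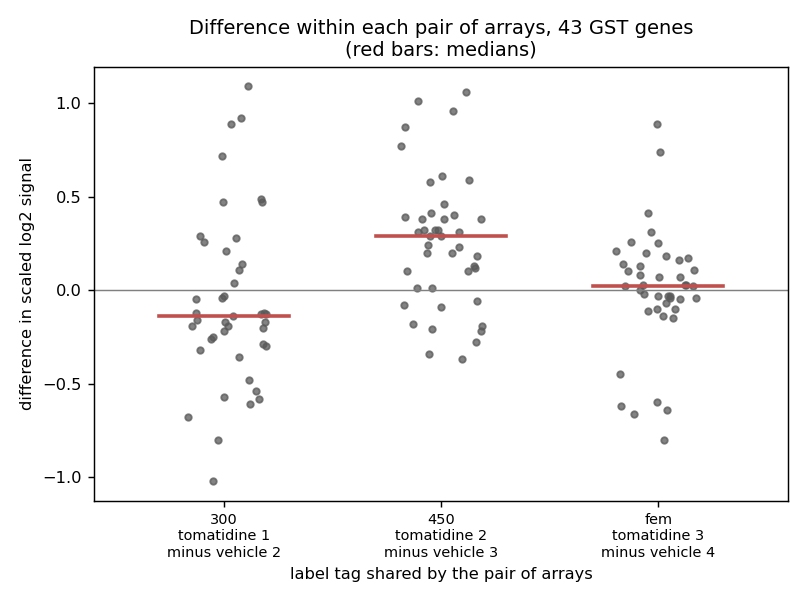
Difference in scaled log2 signal, tomatidine minus vehicle (y axis, log2 units), within each pair of arrays that share a description tag (x axis), with a point for each of the 43 GST genes and red bars for the medians. The medians are -0.14, 0.29 and 0.02, and the genes scatter on both sides of 0 in all 3 pairs.

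In 7 members (16.3%) the tomatidine array was the higher of every tag pair, against 11.1% of all genes, and in 3 members (6.98%) it was the lower, against 12.6%. The 7 were *gst-15*, *gst-16*, *gst-21*, *gst-28*, *gst-35*, *gst-44* and *gsto-3*, and the 3 were *gst-3*, *gst-7* and *gst-43*. Differences of *gst-7* within the pairs were -0.05, -0.22 and -0.05 although its overall difference was 0.07, because vehicle 1, in no pair, was its lowest array.

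Many GST genes lie beside each other in the genome (RefSeq, WBcel235, genes separated by at most 2 other protein-coding genes). In the group of *gst-26* to *gst-29*, *gst-31*, *gst-32*, *gst-34*, *gst-35* and *gst-39*, the 8 kept genes were all above 0, from 0.06 to 0.38. In the group of *gst-6* to *gst-9* the 4 genes lay between 0.02 and 0.09. The 7 kept genes in the group of *gst-12*, *gst-14* to *gst-20* and *gst-24* ran from -0.25 to 0.50, with 5 above 0, and *gst-2* and *gst-3*, the kept neighbors of *gst-4*, lay at -0.49 and -0.29. Other fits turned some of these signs. With the tag as a block *gst-27* was -0.03, *gst-39* -0.06, *gst-6* -0.00, *gst-7* -0.11, *gst-8* -0.06 and *gst-20* -0.03. With the slide as a block *gst-31* was -0.22, *gst-32* -0.20, *gst-9* -0.17, *gst-20* -0.08, *gst-14* -0.02, *gst-15* -0.03 and *gst-16* -0.01. The 22 kept genes outside these groups had 17 above 0 and 5 below. None of these genes passed the test, and the sequences of the probes were not used here, so signal shared between near copies cannot be told apart.

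Other genes of glutathione metabolism, listed together with regulators of GST genes, also gave no calls. Of 38 listed genes, 37 were kept, and 0 passed the test or had an unadjusted p under 0.05 in limma without a block. The median log2 fold change was -0.03, with 18 above 0. The range ran from -0.48 ± 0.44 (*gpx-4*, a glutathione peroxidase) to 0.64 ± 0.49 (*gsk-3*, a kinase that inhibits SKN-1). For *gpx-4* tomatidine 1 read 6.13 and the other arrays 7.15 to 8.38. For *gsk-3* vehicle 2 read 5.42 and the other arrays 7.17 to 8.15. With the tag as a block *gsk-3* was 0.81 (unadjusted p = 0.0223, adjusted p = 0.988 in limma). With the slide as a block *gpx-4* was -0.93 (unadjusted p = 0.0286, adjusted p = 0.999 in limma). The gene *gcs-1*, the rate-limiting enzyme of glutathione synthesis and a SKN-1 target, had signals of 12.04, 12.48 and 12.52 in tomatidine-treated worms, against 12.37, 12.21, 12.06 and 12.62 in vehicle-treated worms, a difference of 0.03 ± 0.20 (interval -0.40 to 0.47). Glutathione synthetase, *gss-1*, read 13.42, 13.59 and 13.27 with tomatidine and 13.43, 14.13, 13.45 and 13.79 with vehicle, a difference of -0.27 ± 0.22. Glutathione reductase, *gsr-1*, read 14.12, 13.83 and 13.84 with tomatidine and 13.83, 14.57, 13.71 and 14.17 with vehicle, a difference of -0.14 ± 0.23. In these genes each interval lay within 2-fold of 0.

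The regulator *skn-1* and its inhibitor *wdr-23* were as close. The transcript of *skn-1* itself had signals of 13.62, 13.60 and 13.40 in tomatidine-treated worms, against 13.73, 13.69, 13.76 and 13.34 in vehicle-treated worms, a difference of -0.09 ± 0.19 (interval -0.51 to 0.32). The transcript of *wdr-23*, whose product targets SKN-1 for degradation, read 13.80, 13.79 and 14.05 with tomatidine and 14.01, 14.05, 14.08 and 13.76 with vehicle, a difference of -0.10 ± 0.19. These are transcript levels, and the location or activity of the SKN-1 protein was not measured here. The 8 glutathione peroxidases had a median of 0.05 with 5 above 0, the 8 *mrp* exporters of conjugates a median of -0.19 with 3 above 0, the 5 glutaredoxins a median of 0.03, and the 11 regulators a median of 0.00 with 6 above 0.

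**Figure D5:**
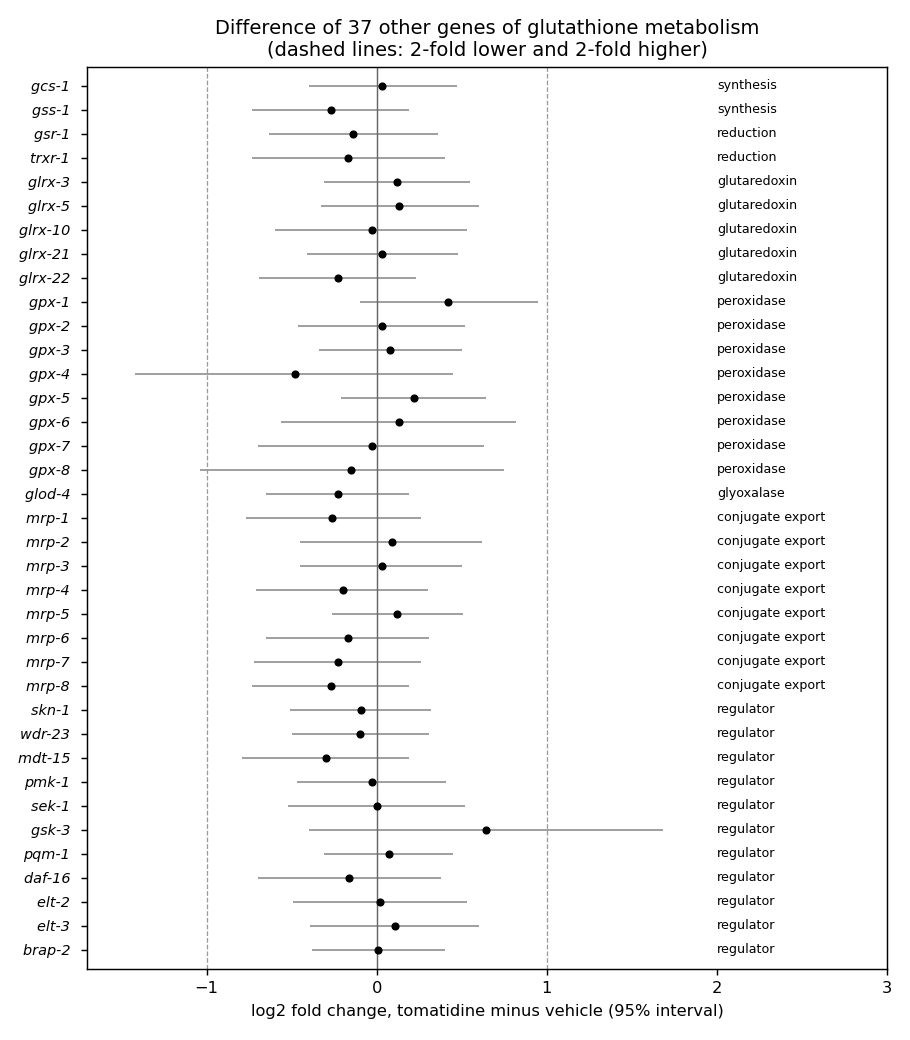
Log2 fold change of 37 other genes, of glutathione metabolism or regulators of GST genes, tomatidine minus vehicle (x axis, log2 units), with points for the estimate, bars for the 95% interval of limma's fit and the role of each gene at the right. Every bar crosses 0, with *gcs-1* at 0.03 and *skn-1* at -0.09.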

How the data were processed

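The authors extracted each array with Agilent Feature Extraction 11.5.1.1, and the deposited processed signal (an intensity) had its background subtracted and spatial trends removed, with no scaling across arrays. The value table that the authors deposited gives a score, their own z-scores of log signal, used as an alternative. Control and outlier spots were left out, and spots of a probe were averaged as log2. Of 43603 probes, 34544 matched a gene by name, and the brightest kept probe stood for a gene. Log2 values became z-scores per array, times the mean SD of the arrays (4.05). Limma 3.58.1 (R 4.3.3) fitted all 14224 genes with lmFit and eBayes with trend (5 residual degrees of freedom), and was tested on simulated data. Deviations of arrays sharing a description tag correlated across genes at r of 0.61, 0.19 and 0.51 and those sharing a title number at -0.53, -0.45 and -0.33, so the tags, not the title numbers, were taken to pair arrays. Slide is shared too by the pairs at 0.61 and 0.51, and vehicle 1, which shares no tag, gave 0.35 with tomatidine 2 and 0.35 with tomatidine 3, above the 0.19 of one tag pair. The tag fit has 2 residual degrees of freedom.

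The members, gene lists and tests were chosen with earlier results of these data known. Genes named in full are the 4 highest and 4 lowest fold changes, all *gsto* and *gstk* genes, genes of known role and those beside the filter; *gst-44*, *gst-5*, *gst-12*, *gst-15*, *gst-26*, *gst-30*, *gst-40*, *gpx-4* and *gsk-3* were named after their values were seen. Planned comparisons of promoter motifs and protein sequences were not run.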

Additional observations from a re-analysis of the deposited data

Results flagged for a closer look

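One member had an array far from the others of its group. For *gst-42*, vehicle replicate 4 read 10.37 and the nearest vehicle array 9.57, a gap of 0.84 of the range of the vehicle arrays, above Dixon's 95% critical value for 4 arrays. Of 43 members examined in the 4 vehicle arrays, 1 had such a gap, and chance marks about 1 in 20 groups. The 3 tomatidine arrays were not examined this way, as the group is too small.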

How the results depend on the processing

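Under the 22 alternatives, 0 GST genes passed the adjusted test in each, and the median fold change of the members lay between -0.01 and 0.21, with 0.00 to 0.18 when single arrays were left out. With the description tag as a replicate block the median was 0.02, and with the title number as a block it was 0.17. These blocks repeat the estimates of the fits without vehicle replicate 1 and without vehicle replicate 4, so not all alternatives are separate checks. The number of all genes called higher, 11, was 23 with the tag block and 28 with the title block (1 lower). It was 5 with probes above background on all arrays, 6 in limma without trend and 0 in Student's t-test. When single arrays were left out it was 7 to 11. Without both vehicle replicate 2 and tomatidine replicate 1, 1 gene was called lower. The cause of these differences was not tested, except that the filter tests fewer genes.

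Of 433 values of the 20 named members under alternatives, 384 kept their direction and 49 turned it, all in members whose fold change was between -0.04 and 0.38. Some members at the ends kept their direction but not their size. After normexp and quantile normalization *gst-19* was 0.11, *gst-2* -0.15, *gst-32* 0.05 and *gst-35* 0.08. With the raw median signal they were 0.08, -0.16, 0.05 and 0.11. In the same settings *gst-24* was -0.24 and -0.29, near its main value. With the tag as a replicate block, *gst-11* was 0.03, *gst-33* -0.04, *gstk-1* -0.09, *gst-1* -0.12, *gst-7* -0.11, *gsto-2* -0.06 and *gst-10* -0.14, and with the title block *gst-11* was 0.09 and *gst-1* -0.02. With the slide as a block, *gst-33* was -0.17, *gstk-1* -0.00, *gsto-1* -0.22, *gst-10* -0.01, *gst-31* -0.22, *gstk-2* -0.10 and *gst-32* -0.20. After normexp and quantile normalization *gst-11* was 0.00 and *gst-33* -0.05, with the raw median signal *gst-11* was 0.03, and with the 75th percentile shift *gst-33* was -0.03. Without both vehicle replicate 2 and tomatidine replicate 1, *gst-11* was 0.22, *gst-7* -0.02 and *gst-10*, above 0 as before, 0.36, and without both vehicle replicate 4 and tomatidine replicate 3, chosen after seeing the data, *gst-33* was -0.01. When single arrays were left out, *gst-1* ranged from -0.17 to 0.30, *gst-7* from -0.30 to 0.35, *gst-10* from -0.14 to 0.35, *gst-11* from -0.22 to 0.24, *gst-31* from -0.10 to 0.48, *gst-32* from -0.13 to 0.78, *gst-33* from -0.19 to 0.19, *gstk-1* from -0.09 to 0.23, *gstk-2* from -0.15 to 0.60, *gsto-1* from -0.10 to 0.29 and *gsto-2* from -0.06 to 0.19.

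The number of arrays limits precision. Of the kept members, 7 were above background on 4 arrays, and without vehicle replicate 4 *gst-42* and *gst-5* had an unadjusted p of 0.036 and 0.0463, with an adjusted p of 1.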
